A study of Mus musculus with 28 samples.

Results

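At 21 days after surgery, the change in microRNA (miRNA) levels that accompanied myocardial infarction (MI) was compared between mice operated at postnatal day 1 (P1) and mice operated at postnatal day 7 (P7). The measure was a difference of 2 differences: the log2 change from sham to MI at P7 minus the log2 change from sham to MI at P1, called the P7 minus P1 difference here. All 12 small RNA libraries of the 21-day follow-up entered this comparison, of 28 libraries in the series, and the 16 libraries of the 3-day follow-up were kept apart. The 4 groups held 3 libraries each: sham at P1, MI at P1, sham at P7 and MI at P7. All mice were of the outbred strain Hsd:ICR(CD-1), and MI followed a tie around the left anterior descending coronary artery (LAD ligation). Mice operated at P1 were 22 days old at collection and mice operated at P7 were 28 days old, so operation day and age moved together. The tissue was left ventricular wall from the remote zone, the muscle away from the infarct, and small RNA libraries were built from its total RNA (TruSeq Small RNA chemistry, HiSeq2000). The labels gave no genetic change and no drug.

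The deposited counts summed to 18.2 to 26.9 M reads per library, and to 14.9 to 21.5 M after each mature miRNA was counted once. The labels gave each group its own title code and did not say what the code stands for, so code and group cannot be told apart. They also did not say that the libraries came from separate mice, so each p-value reflects the spread among these libraries, which may be technical. In a principal component analysis, replicates 1 and 3 of the MI P7 group stood apart at 13.0 and 14.2 on the first component, which held 36.2% of the variance, while replicate 2 lay at 2.61 and the other 9 libraries between -5.93 and 1.36. The MI P7 libraries thus differed most among themselves. Each miRNA was given 1 estimate of spread for all groups, so p-values of contrasts with MI P7 rest partly on the closer groups. The libraries carried 2 lane tags: sham P1 was on lane L003 alone, and the other 3 groups had libraries on both lanes. In MI P7, replicates 1 and 3 were on L003 and replicate 2 was on L005. The split within the MI P7 group and the lane therefore cannot be told apart, here and wherever replicate 2 differs below. In heart tissue, fewer cells of a type and less RNA per cell cannot be told apart, and this holds for every level below. As a sum, the muscle miRNAs that should mark the labelled tissue were abundant in all 12 libraries. The summed level of 12 cardiac and striated muscle miRNAs lay between 73669 and 103020 counts per 1 M counts (CPM) in MI P7. In the other 3 groups it lay between 114290 and 139690 CPM. Most of this sum was miR-133a-3p, so it says little about the other members.

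A mature miRNA is a short RNA cut from a hairpin precursor, and each hairpin can yield a 5p and a 3p arm. It guides the silencing complex to messenger RNAs, mainly through its seed, bases 2 to 8 from the 5′ end, and members of a family share that seed. In the mouse, heart muscle injured in the first day or so of life can regrow, and this capacity is lost within the first week, after which the injured heart scars. Operating at P1 and at P7 places the infarct on either side of that change.

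The sequences below are those of the miRNAs on which the comparison turned, taken from RefSeq for the mouse build GRCm38.p6. Each is written 5′ to 3′ with the seed in capitals, and they are grouped as the results are. The first 5 belong to the group linked with fibroblasts, and the 2 lines for miR-199a-3p and miR-199b-3p carry the same letters, so that their reads cannot be told apart.
miR-199a-5p: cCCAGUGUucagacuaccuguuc
miR-199a-3p: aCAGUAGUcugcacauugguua
miR-199b-3p: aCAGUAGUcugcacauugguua
miR-214-3p: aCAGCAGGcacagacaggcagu
miR-21a-5p: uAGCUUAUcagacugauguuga

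The next 3 are of the miR-34b/c pair, whose 3p arms share the seed AUCACUA.
miR-34b-5p: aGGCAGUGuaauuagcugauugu
miR-34b-3p: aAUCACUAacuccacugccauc
miR-34c-3p: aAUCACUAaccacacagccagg

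The third set holds the miRNAs that were low after MI at P1, followed by an inflammation-linked miRNA and, last, one that moved the other way.
miR-582-5p: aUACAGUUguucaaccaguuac
miR-582-3p: uAACCUGUugaacaacugaac
miR-184-3p: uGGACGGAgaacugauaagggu
miR-146b-5p: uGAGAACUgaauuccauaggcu
miR-9-5p: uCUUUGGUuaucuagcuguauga

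Of 598 miRNAs tested, 59 differed in their infarction effect between operation days at an adjusted p under 0.05, which is 9.87% of those tested (edgeR quasi-likelihood test, Benjamini-Hochberg adjustment). The P7 minus P1 difference was above 0 for 47 of them (7.86%) and below 0 for 12 (2.01%), and the median over all tested miRNAs was 0.04 on the log2 scale. Scaling by total counts in place of TMM moved that median to 0.57 and gave 137 calls, 135 above 0 and 2 below, so the count of each direction depends on the scaling. With the lane as a covariate no miRNA passed, while 121 had an unadjusted p under 0.05, against 166 without it. Within lane L003 alone, where MI P1 is 1 library, 19 passed. Leaving out 1 library gave between 16 calls (when either sham P1 replicate 2 or MI P1 replicate 1 was dropped) and 117 (without MI P7 replicate 2), and 15 of the 59 passed in all 12 of those fits.

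Taken one operation day at a time, most miRNAs that changed with infarction did so at P7. After surgery at P7, 132 miRNAs differed between MI and sham (22.1%), 79 higher (13.2%) and 53 lower (8.86%) in MI. After surgery at P1, 3 differed (0.502%), all lower in MI: both arms of miR-582, and miR-184-3p. The other 40 of the 43 miRNAs with an unadjusted p under 0.05 at P1 did not pass. Between the 2 sham groups no miRNA passed with edgeR, 72 had an unadjusted p under 0.05, DESeq2 called 14 and limma-voom 0. The 2 MI groups differed in 81 miRNAs (13.5%), 50 higher (8.36%) and 31 lower (5.18%) at P7. With replicate 2 as the sole MI P7 library, an alternative chosen after seeing the data, the MI against sham count at P7 was 3 and the count for the P7 minus P1 difference was 26, of which 24 were above 0. In that fit the spread comes from the other 3 groups alone and the lone library is assumed to vary like them, so its p-values, here and below, are no evidence of stability.

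**Figure D1:**
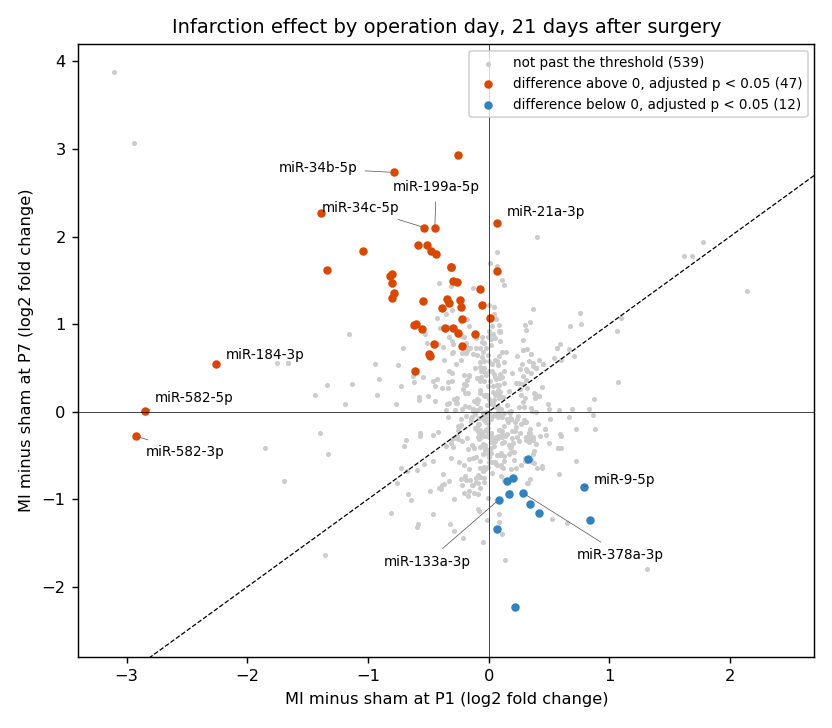
Change from sham to MI at P1 (horizontal axis, log2) against the change at P7 (vertical axis, log2) for each of the 598 miRNAs tested, 21 days after surgery. The 47 calls above 0 (orange) lie above the dashed line of equal change, mostly with a rise at P7, the 12 calls below 0 (blue) lie under it, and miR-582 and miR-184-3p stand at the far left with low values at P1.

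Among the 47 miRNAs with a difference above 0, the median change at P7 was 1.28 and that at P1 was -0.45, and 46 had a P7 change above 0 against 3 at P1. These medians describe miRNAs chosen by the same contrast and test nothing. The sham groups entered as well: 43 of the 47 had a lower estimate in sham P7 than in sham P1, with a median of -0.53. In the 12 with a difference below 0, the median change was -0.97 at P7 and 0.25 at P1. Relative to the mean of their own sham group, the 47 had medians of 1.37, 0.865 and 1.20 in the 3 MI P7 libraries, and of -0.666, -0.463 and -0.235 in the 3 MI P1 libraries. All 3 MI P7 libraries therefore sat above their sham mean and all 3 MI P1 libraries below theirs, with replicate 2 the nearest to sham among the P7 libraries.

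**Figure D2:**
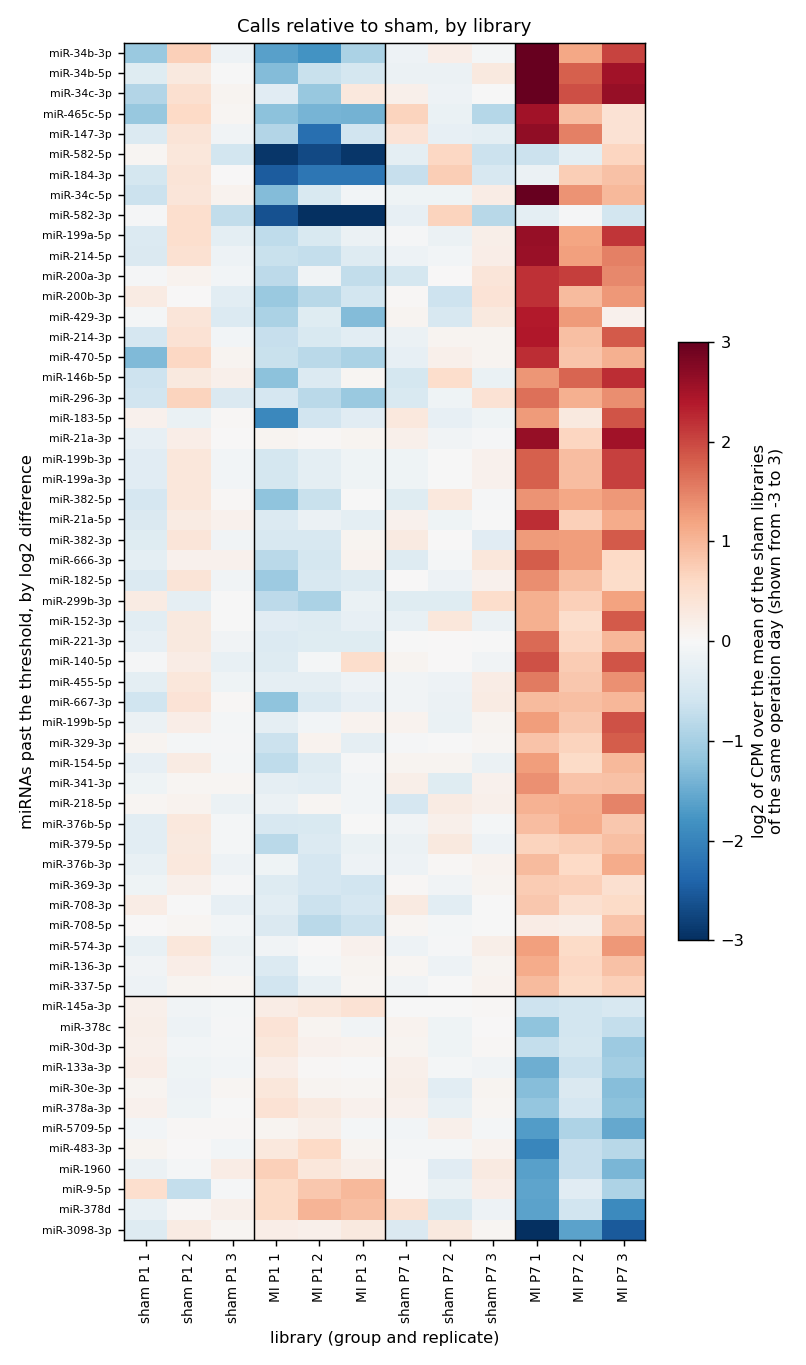
The 59 miRNAs past the threshold (rows, ordered by the P7 minus P1 difference) in the 12 libraries (columns), as log2 of CPM over the mean of the 3 sham libraries of the same operation day; the colour scale runs from -3 to 3. The MI P7 columns are mostly red in the upper block and blue in the lower, mostly paler in replicate 2. The MI P1 columns are mostly paler with the reverse sign. For miR-582 and miR-184-3p the MI P1 columns are deep blue and the MI P7 columns pale.

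All 8 miRNAs of the fibroblast-associated list passed with a difference above 0, against 7.86% of all tested. Their median was 2.03, against 0.04 over all tested miRNAs. At P7 all 8 were higher in MI than in sham, against 13.2% of all tested, with a median of 1.75. At P1 none passed, with a median of -0.31. miR-199a-3p and miR-199b-3p are the same reads, and the 8 are arms of a few shared hairpins, so they are not independent. These miRNAs are abundant in fibroblasts and other stromal cells, and miR-21 and miR-199a/214 are among the miRNAs most often linked with scar formation. The summed level of the 8 was 32365 to 82404 CPM in the MI P7 libraries and 13344 to 29747 CPM in the other 9. The sum holds the miR-199a-3p reads under both names. MI P7 did not overlap with the other groups on this sum, which is not TMM-scaled, but it did for some members, given below. On TMM-scaled CPM, MI P7 lay above the other 9 libraries for 6.19% of all single miRNAs tested.

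miR-199a-5p stood at 434, 821 and 473 CPM in sham P1, at 341, 418 and 510 CPM in MI P1, at 325, 295 and 379 CPM in sham P7, and at 2044, 751 and 1473 CPM in MI P7. The MI P7 libraries were high, but the lowest of them, replicate 2, lay under the highest sham P1 library. The P7 minus P1 difference was 2.54 ± 0.46 (SE, adjusted p = 0.00923), from 2.10 ± 0.33 at P7 and -0.45 ± 0.32 at P1. miR-214-3p, which derives from the same non-coding transcript, stood at 93.2, 178 and 124 CPM in sham P1, at 81.6, 95.4 and 106.4 CPM in MI P1, at 66.4, 79.2 and 80.1 CPM in sham P7, and at 399, 140 and 267 CPM in MI P7. It showed the same order of groups, again with MI P7 replicate 2 inside the sham P1 range. Its difference was 2.32 ± 0.45 (adjusted p = 0.00923), and that of its other arm, miR-214-5p, was 2.48 ± 0.46 (adjusted p = 0.00923). On GRCm38 the hairpins of miR-199a-2 (chr1:162217814-162217923, plus strand) and miR-214 (chr1:162223368-162223477, plus strand) both lie in exons of Dnm3os, a non-coding gene antisense to Dnm3, with their mature arms about 5.5 kb apart. miR-199a is also made from a second hairpin on chromosome 9, and the mature reads do not say which was used.

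miR-199a-3p, the most abundant of the group with miR-21a-5p, stood at 5390, 8567 and 6460 CPM in sham P1, at 4744, 5554 and 6195 CPM in MI P1, at 4707, 5077 and 5661 CPM in sham P7, and at 17771, 9725 and 21218 CPM in MI P7. Every MI P7 library was above the other 9. Its difference was 1.97 ± 0.37 (adjusted p = 0.00923), and the same reads under the name miR-199b-3p gave the same value. miR-199b-5p, the arm that tells the 199b hairpin from 199a, had a difference of 1.47 ± 0.35 (adjusted p = 0.0203), with 365, 267 and 579 CPM in MI P7 against at most 204 CPM elsewhere.

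miR-21a-5p, from a hairpin in an exon of Vmp1 on chromosome 11, stood at 5161, 8246 and 7598 CPM in sham P1, at 5267, 6162 and 5708 CPM in MI P1, at 5900, 4935 and 5299 CPM in sham P7, and at 24994, 8796 and 11577 CPM in MI P7. All 3 MI P7 libraries were above the other 9, replicate 2 by a narrow margin. The difference was 1.78 ± 0.44 (adjusted p = 0.0228). The passenger arm miR-21a-3p, at 257, 66.3 and 244 CPM in MI P7 and 39.1 to 62.8 CPM elsewhere, had a difference of 2.09 ± 0.51 (adjusted p = 0.0228). With MI P7 replicate 2 alone that value was 0.63 (adjusted p = 0.154), and 1.05 (adjusted p = 0.0493) for miR-21a-5p. Both arms of miR-21a missed the threshold when any one of 6 libraries was dropped: sham P1 replicate 2, replicates 1 and 2 of MI P1, and each sham P7 library, at an adjusted p of up to 0.0634. miR-199a-5p, miR-199a-3p and both arms of miR-214 passed in all 12 fits that left out 1 library. Over those fits the list kept between 5 and 8 calls, the 5 when sham P1 replicate 2, or either of replicates 1 and 2 of MI P1, was dropped. With the lane as a covariate the median of the list was 1.72 and none of the 8 passed.

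The miR-34 family had the highest median of the lists, 2.92, and 4 of its 6 tested members passed, all above 0, against 7.86% of all tested: both arms of miR-34b and of miR-34c. This family is induced by p53 and slows cell division, and miR-34a is known for limiting repair in the aging and the neonatal mouse heart. miR-34b-5p stood at 8.19, 13.0 and 10.4 CPM in sham P1, at 4.26, 6.64 and 7.34 CPM in MI P1, at 5.95, 5.91 and 8.19 CPM in sham P7, and at 72.3, 23.3 and 38.0 CPM in MI P7. The MI P7 libraries lay above all others, and the lowest of them had 503 counts. Its difference was 3.52 ± 0.51 (adjusted p = 0.00514, the smallest of all), from 2.73 ± 0.37 at P7 and -0.79 ± 0.36 at P1. With the lane as a covariate it was 3.26 and just missed the threshold (adjusted p = 0.0591).

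miR-34c-5p stood at 69.2, 139 and 116 CPM in sham P1, at 43.5, 78.6 and 101 CPM in MI P1, at 70.6, 70.0 and 89.9 CPM in sham P7, and at 646, 194 and 151 CPM in MI P7. Replicate 1 was more than 3 times the other MI P7 libraries, and all 3 were above the other groups. Its difference was 2.64 ± 0.71 (adjusted p = 0.0371), and this call was lost without any one of 7 libraries: replicates 2 and 3 of sham P1, replicates 1 and 2 of MI P1, and each of the sham P7 libraries. The 3p arms were rare. miR-34b-3p, at 3.48 to 12.9 CPM in MI P7 and 0.712 to 4.08 CPM elsewhere, had a difference of 3.65 ± 0.71 (adjusted p = 0.00923). miR-34c-3p, at 1.90 to 6.50 CPM in MI P7 and 0.356 to 1.09 CPM elsewhere, had a difference of 3.19 ± 0.73 (adjusted p = 0.0178). The 2 hairpins lie close together on the minus strand of chromosome 9, with 545 bp between mature miR-34b-5p and mature miR-34c-3p (hairpin of miR-34b at chr9:51103562-51103645). miR-34a-5p and miR-449a-5p, which share the seed GGCAGUG with miR-34b-5p and come from other loci, did not pass, at 0.61 ± 0.31 (adjusted p = 0.215) for miR-34a-5p and 0.57 for miR-449a-5p.

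**Figure D3:**
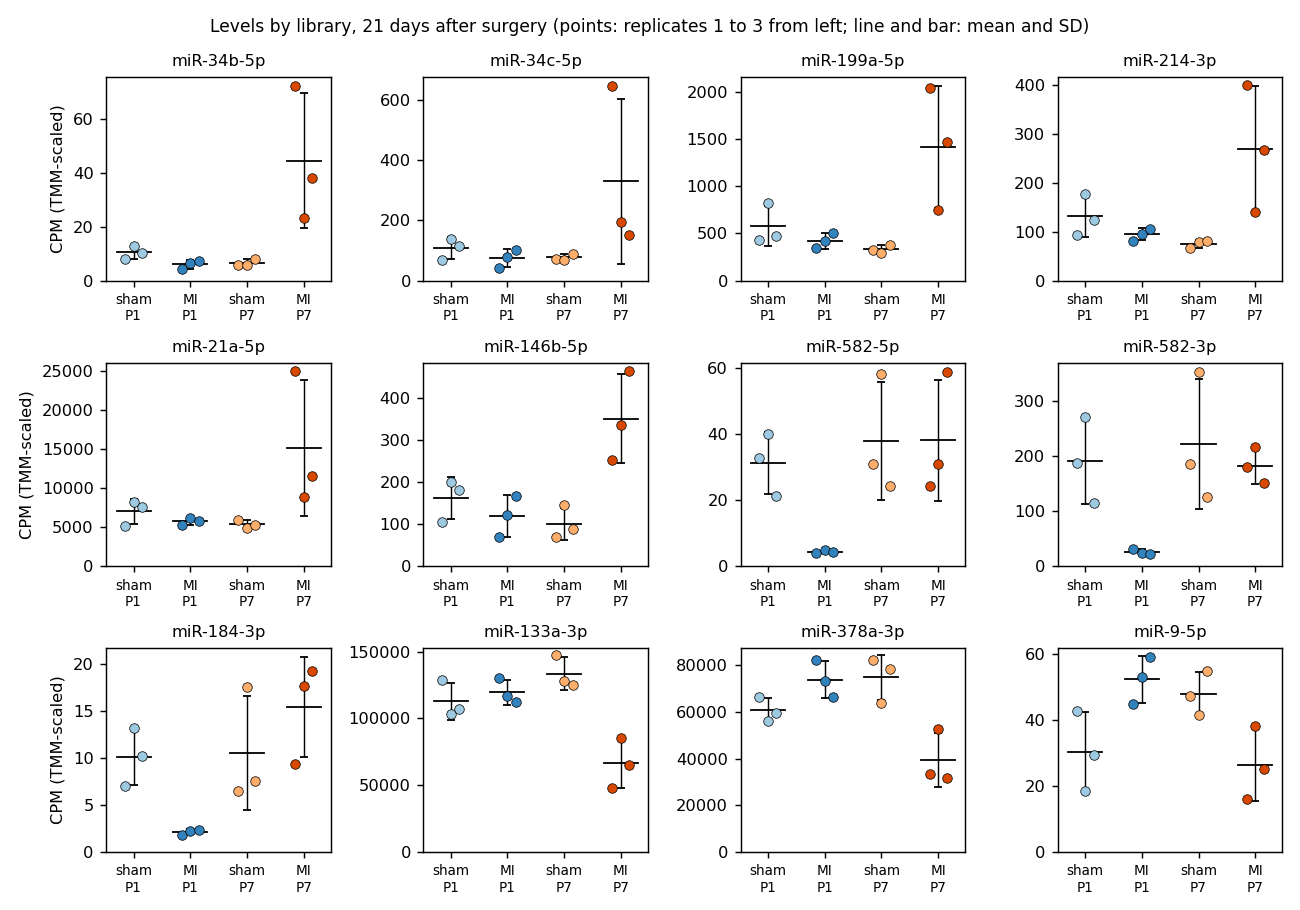
TMM-scaled CPM (vertical axes, each from 0) of 12 miRNAs in the 3 libraries of each group, with group mean and SD. In the upper row and in the panels of miR-21a-5p and miR-146b-5p the MI P7 points are the high ones, for miR-582 and miR-184-3p the MI P1 points are the low ones, and for miR-133a-3p and miR-378a-3p the MI P7 points are the low ones.

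For 3 miRNAs the difference rested on low levels after MI at P1. miR-582-5p stood at 32.9, 40.0 and 21.4 CPM in sham P1, at 4.14, 4.80 and 4.16 CPM in MI P1, at 31.0, 58.4 and 24.5 CPM in sham P7, and at 24.4, 31.1 and 59.0 CPM in MI P7. The 3 MI P1 libraries held 67 to 81 counts each and lay far below the other 9, which overlapped one another. The change was -2.85 ± 0.40 at P1 (adjusted p = 0.00155) and 0.01 ± 0.36 at P7 (adjusted p = 0.991), and the P7 minus P1 difference was 2.85 ± 0.53 (adjusted p = 0.00923). miR-582-3p, the more abundant arm, stood at 188, 271 and 115 CPM in sham P1, at 31.0, 23.4 and 21.4 CPM in MI P1, at 186, 353 and 125 CPM in sham P7, and at 179, 216 and 151 CPM in MI P7. It repeated the pattern, with a change of -2.92 ± 0.38 at P1 and a difference of 2.64 ± 0.51 (adjusted p = 0.00923). The hairpin lies in an intron of Pde4d, a phosphodiesterase gene, at chr13:109324744-109324824.

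miR-184-3p, best known from the lens and cornea of the eye and not on any of the lists, was named after its values were seen because it is the third call at P1. It stood at 7.00, 13.1 and 10.2 CPM in sham P1, at 1.79, 2.25 and 2.27 CPM in MI P1, at 6.50, 17.5 and 7.48 CPM in sham P7, and at 9.35, 17.6 and 19.2 CPM in MI P7. The MI P1 libraries held 29 to 42 counts and were below all others, and the 2 sham groups and MI P7 overlapped. Its change was -2.26 ± 0.40 at P1 (adjusted p = 0.0143) and 0.55 ± 0.37 at P7 (adjusted p = 0.294), and its difference was 2.80 ± 0.54 (adjusted p = 0.00923). The differences of these 3 miRNAs passed in all 12 fits that left out 1 library. With MI P7 replicate 2 alone they were 2.60, 2.93 and 3.04, and miR-582-3p missed the threshold (adjusted p = 0.0614). All 3 MI P1 libraries carry 1 title code, so a feature of that code, whatever it marks, cannot be told apart from the infarct.

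Of 9 immune cell miRNAs 2 passed, both above 0, against 7.86% of all tested. The list's median was 0.22, and was 0.75 under total count scaling and 0.48 without sham P7 replicate 2. miR-146b-5p, which restrains signalling from innate immune receptors, stood at 105.6, 199 and 181 CPM in sham P1, at 68.9, 122 and 168 CPM in MI P1, at 69.7, 144 and 87.3 CPM in sham P7, and at 253, 334 and 463 CPM in MI P7. All MI P7 libraries were above the other 9, and replicate 2 was not the lowest here. The difference was 2.24 ± 0.51 (adjusted p = 0.0178). The other call, miR-147-3p, induced in macrophages by bacterial products, was rare, with 0.635 to 2.96 CPM in MI P7 and 0.119 to 0.746 CPM elsewhere, so the groups overlapped. Its difference was 2.87 ± 0.81 (adjusted p = 0.0376), and its call was lost without any one of 8 libraries (adjusted p up to 0.103).

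The miRNAs that mark leukocytes did not pass for the difference. miR-223-3p of myeloid cells had a difference of 0.42 ± 0.24 (adjusted p = 0.268), miR-142a-3p of all leukocytes had 0.62 ± 0.26 (adjusted p = 0.145), and the lymphocyte miRNA miR-150-5p had -1.35 (adjusted p = 0.0585). miR-146a-5p, which shares its seed with miR-146b-5p but comes from another locus, had 0.22 (adjusted p = 0.74). At P7 by itself, miR-142a-3p was higher in MI than in sham (0.58 ± 0.19, adjusted p = 0.0392) and miR-150-5p lower (-1.26 ± 0.30, adjusted p = 0.0124), the latter with all 3 MI P7 libraries below the other 9. The summed level of the 9 immune cell miRNAs was 3524 to 5157 CPM in MI P7 and 2779 to 3579 CPM in the other groups.

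The largest list was the Dlk1-Dio3 cluster, an imprinted stretch of chromosome 12 whose miRNAs are transcribed from the maternal allele, are abundant before birth and decline afterwards. Of its 63 tested members 12 passed, all above 0, against 7.86% of all tested, and the estimates of 62 were above 0, with a median of 0.89 against 0.04 and 305 of 598 over all tested miRNAs. At P7, 28 of the 63 were higher in MI, against 13.2% of all tested (median 0.75), and at P1 none passed (median -0.19). The members are cut from shared transcripts, so they are not independent of each other. The summed level of all 89 listed members, tested or not, was taken without TMM scaling. It was 5278 to 7249 CPM in sham P1, 4187 to 6281 CPM in MI P1, 3615 to 4428 CPM in sham P7 and 7637 to 11648 CPM in MI P7. On this sum MI P7 was above the rest without overlap, by a narrow margin over sham P1, and sham P7 lay below sham P1. The share of single tested miRNAs with MI P7 above the rest, 6.19%, is on TMM-scaled CPM, and the sum was not computed on that scale.

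miR-369-3p, near the distal end, stood at 15.9, 19.4 and 16.8 CPM in sham P1, at 13.2, 12.3 and 11.6 CPM in MI P1, at 13.1, 11.9 and 13.6 CPM in sham P7, and at 21.7, 21.1 and 18.0 CPM in MI P7. The shift was small and even, with MI P7 replicate 3 just inside the sham P1 range. Its difference was 1.15 ± 0.24 (adjusted p = 0.0137), lost without sham P1 replicate 2 (adjusted p = 0.0517). miR-136-3p, the most abundant of the 12 at a mean of 276 CPM, had 1.00 ± 0.26 (adjusted p = 0.032). miR-382-5p had 1.80 ± 0.43 (adjusted p = 0.0203), miR-382-3p 1.75 ± 0.40 (adjusted p = 0.0178), and miR-341-3p 1.28 ± 0.29 (adjusted p = 0.0178). The positions of the list spanned chr12:109572044-109743784, and 2 calls from outside the list, miR-299b-3p and miR-666-3p, lay in it too, at 1.60 and 1.63. The list's count was unstable: it was 0 without sham P1 replicate 2, 1 when replicate 1 or 2 of MI P1 was dropped, 29 without MI P7 replicate 3, and 41 under total count scaling. The median lay between 0.77 and 1.04 in the fits that left out 1 library, and was 0.91 with MI P7 replicate 2 alone and 0.98 with the lane as a covariate.

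The calls below 0 were of mixed kinds: some were abundant miRNAs of heart muscle, while others were rare or better known from other tissues. Under total count scaling most of these calls did not pass. miR-133a-3p, a heart and skeletal muscle miRNA that restrains cell division in the embryonic heart, stood at 128750, 103070 and 107140 CPM in sham P1, at 130360, 116650 and 112080 CPM in MI P1, at 147670, 128130 and 124970 CPM in sham P7, and at 48187, 85688 and 65445 CPM in MI P7. All MI P7 libraries were below the other 9. The difference was -1.09 ± 0.30 (adjusted p = 0.0359), from -1.01 ± 0.21 at P7 and 0.08 ± 0.21 at P1, and was -0.57 under total count scaling. It was the only call among 12 cardiac and striated muscle miRNAs, whose median was 0.14, 0.63 under total count scaling and -0.42 without MI P7 replicate 3. Of these 12 estimates, 7 were above 0.

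Its other arm, miR-133a-5p, was lower in MI at P7 (-1.11 ± 0.25, adjusted p = 0.011) with all 3 MI P7 libraries below the other 9, and its difference of -1.03 ± 0.35 did not pass (adjusted p = 0.0812). The miRNAs of the other muscle loci gave no call. miR-1a-3p, which shares transcripts with miR-133a, had a difference of -0.19 ± 0.37 (adjusted p = 0.774). The myosin-gene miRNAs miR-208a-3p, miR-208b-3p and miR-499-5p had -0.43 ± 0.34, 0.36 ± 0.31 and 0.36 ± 0.35, with adjusted p from 0.421 to 0.514. miR-133b-3p, a close sequence relative of miR-133a-3p from another locus, had 0.01 ± 0.42 (adjusted p = 0.985). In MI P7 it stood at 773, 981 and 2196 CPM, so the group spread widely there.

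Of 5 miR-378 family members, linked with energy metabolism in muscle, 3 passed and all 3 were below 0, against 2.01% of all tested. The median was -0.95, and -0.43 under total count scaling. miR-378a-3p, from an intron of Ppargc1b, stood at 66432, 55922 and 59725 CPM in sham P1, at 82079, 73079 and 66551 CPM in MI P1, at 82246, 63885 and 78319 CPM in sham P7, and at 33478, 52601 and 31833 CPM in MI P7. The MI P7 libraries were the lowest 3, replicate 2 close to the lowest sham P1 library. Its difference was -1.21 ± 0.30 (adjusted p = 0.0228). miR-378c, near-identical in sequence and therefore open to reads of miR-378a, had -0.95 ± 0.28 (adjusted p = 0.0496), and the rare miR-378d had -2.08 ± 0.46 (adjusted p = 0.0178). miR-378d passed in all 12 fits that left out 1 library, miR-378a-3p in 6 and miR-378c in 4.

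The 5p members of the miR-30 family, which are abundant in heart muscle and fall in hypertrophy, gave no call for the difference, although all 5 estimates were below 0 (median -0.87, or -0.36 under total count scaling). At P7, 4 of the 5 were lower in MI than in sham, against 8.86% of all tested. The 3p arms, not on that list, gave 2 calls. miR-30e-3p stood at 2096, 1799 and 2082 CPM in sham P1, at 2531, 2097 and 2089 CPM in MI P1, at 2716, 1925 and 2540 CPM in sham P7, and at 983, 1785 and 985 CPM in MI P7. MI P7 replicate 2 lay just under the lowest sham library, and the other MI P7 libraries were far lower. The difference was -1.10 ± 0.33 (adjusted p = 0.0469), and miR-30d-3p had -0.96 ± 0.25 (adjusted p = 0.032). miR-30c-5p, about 3.0 kb from miR-30e-3p, which lies in an intron of Nfyc, had -1.14 ± 0.39 and did not pass (adjusted p = 0.0786).

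miR-145a-3p, the minor arm of a smooth muscle miRNA, stood at 187, 158 and 162 CPM in sham P1, at 198, 209 and 227 CPM in MI P1, at 200, 201 and 208 CPM in sham P7, and at 132, 140 and 147 CPM in MI P7. The groups differed little, but every MI P7 library was below the other 9. Its difference was -0.87 ± 0.21 (adjusted p = 0.0228), and it was the only call of 4 mural cell miRNAs, whose median of -0.16 became 0.34 under total count scaling. miR-143-3p, the main smooth muscle miRNA, had -0.18 ± 0.38 (adjusted p = 0.793), with 44193, 58734 and 107930 CPM in MI P7.

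Each of the 7 lower calls at 10 CPM or more missed the threshold without at least 6 of the 12 libraries taken one at a time, those without sham P1 replicate 2 and MI P1 replicates 1 and 2 among them. The highest adjusted p in those fits was between 0.0695 and 0.129. Their sign was kept in all 12.

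Other lists held single calls. miR-221-3p, a growth-linked miRNA of vascular cells, was the only call of 10 hypertrophy and stress-linked miRNAs (median 0.80, 9 of 10 estimates above 0). It stood at 523, 248 and 321 CPM in MI P7 and 152 to 250 CPM elsewhere, so that replicate 2 overlapped with sham P1. Its difference was 1.57 ± 0.34 (adjusted p = 0.0158), lost without sham P1 replicate 2 and without MI P1 replicate 1 (adjusted p up to 0.0517). miR-222-3p, its seed mate, had 1.42 (adjusted p = 0.058). miR-483-3p, from an intron of the growth factor gene Igf2, was the only call of 3 H19 and Igf2 hosted miRNAs, at 2.49 to 5.98 CPM in MI P7 and 8.99 to 14.5 CPM elsewhere, with a difference of -1.41 ± 0.38 (adjusted p = 0.0344) that passed in 6 of the 12 fits without 1 library.

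Markers of other tissues gave 4 calls among 10 tested, against 9.87% over all miRNAs. miR-9-5p, a neural miRNA, stood at 42.7, 18.4 and 29.4 CPM in sham P1, at 44.7, 53.0 and 59.0 CPM in MI P1, at 47.1, 41.5 and 54.7 CPM in sham P7, and at 16.1, 37.9 and 25.1 CPM in MI P7. MI P7 overlapped with sham P1, and the MI effects of both operation days entered, -0.86 ± 0.32 at P7 and 0.79 ± 0.32 at P1. Its difference was -1.65 ± 0.45 (adjusted p = 0.0359), while neither effect passed alone. The epithelial miRNAs miR-200a-3p, miR-200b-3p and miR-429-3p, from 1 cluster on chromosome 4, had differences of 2.42, 2.37 and 2.36 at 0.978 to 4.68 CPM in MI P7 0.47 to 1.32 CPM in sham P7 and 1.70 to 2.93 CPM in sham P1, so the groups overlapped. miR-200a-3p passed in all 12 fits without 1 library, miR-200b-3p in 11 and miR-429-3p in 2. miR-141-3p and miR-200c-3p, which have the same seeds but come from another locus, had -0.54 and -0.71 and did not pass. The part of non-cardiac tissue in these values was not tested.

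**Figure D4:**
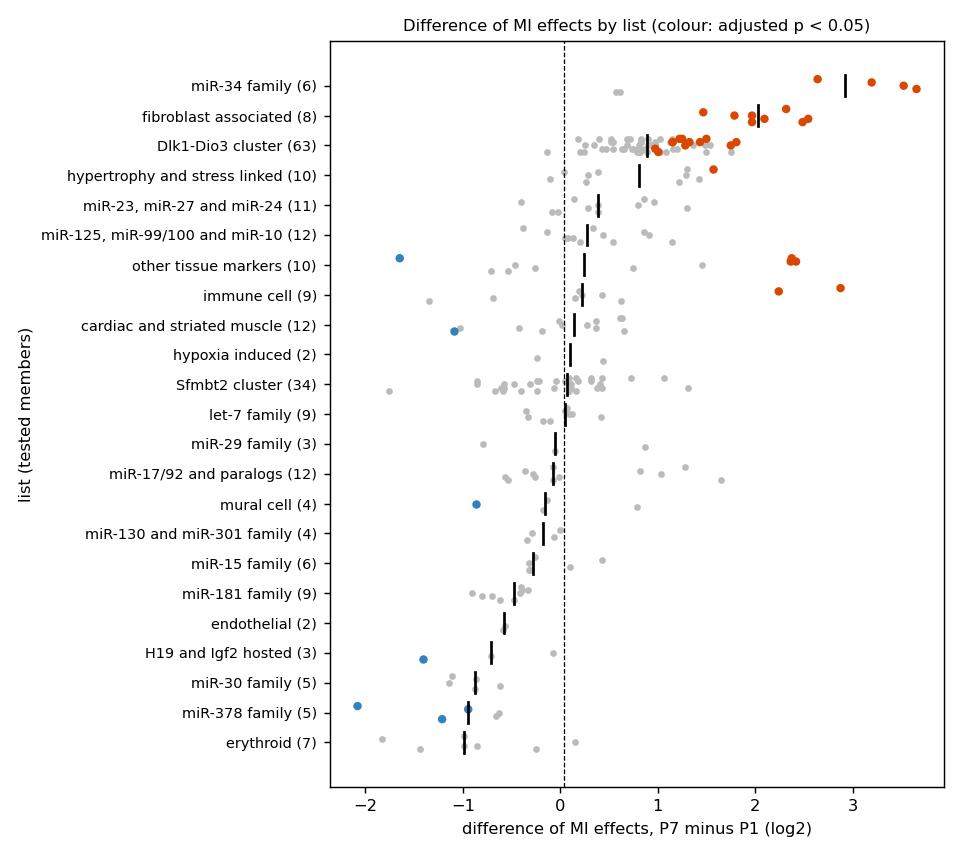
P7 minus P1 difference (horizontal axis, log2) of each tested member of the 23 lists (rows, with the number tested), with the list median as a bar and the median of all 598 miRNAs as a dashed line. Orange and blue points passed the threshold above and below 0; the miR-34 family, the fibroblast-associated list and the Dlk1-Dio3 cluster lie furthest to the right, and the erythroid list and the miR-378 and miR-30 families furthest to the left.

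The remaining lists gave no call for the difference. The erythroid miRNAs had the lowest median, -0.99 over 7 members (-0.49 under total count scaling), and miR-451a, the red cell miRNA, had 0.15 ± 0.51 (adjusted p = 0.886), with 17159 CPM in MI P7 replicate 3 and at most 8276 CPM in the other 11 libraries. Endothelial miR-126a-3p had -0.59 ± 0.30 (adjusted p = 0.205), and it was lower in MI than in sham at P7 by itself (-0.78 ± 0.21, adjusted p = 0.0195). The median of the 2 endothelial miRNAs, -0.58, became -0.06 under total count scaling. The miR-181 family had a median of -0.48, which became 0.08 under total count scaling. The lists tied to cell division had medians near 0: -0.28 for the miR-15 family, which rises as heart muscle cells leave the cell cycle, -0.07 for miR-17/92 and its paralogs, and 0.05 for let-7. Under total count scaling these became 0.29, 0.45 and 0.58. The miR-29 family, which targets collagen messages, had -0.06 (0.50 under total count scaling).

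Of the 59 calls 22 were on no list, 17 above 0 and 5 below. Besides miR-582, miR-184-3p and the miR-30 3p arms they included miR-455-5p at 1.51 ± 0.31 (adjusted p = 0.0138) and miR-218-5p at 1.28 ± 0.30 (adjusted p = 0.0203). Both miRNAs were above the other 9 libraries in all 3 MI P7 libraries. The hairpins of miR-218-5p lie in introns of Slit2 and Slit3, genes of secreted guidance proteins. miR-140-5p, known from cartilage, had 1.53 ± 0.41 (adjusted p = 0.0344), and miR-152-3p, from an intron of Copz2, had 1.58 ± 0.41 (adjusted p = 0.0289). miR-182-5p and miR-183-5p, a pair from 1 cluster on chromosome 6 known from sensory organs, had 1.61 ± 0.38 (adjusted p = 0.0203) and 2.10 ± 0.57 (adjusted p = 0.0359). These miRNAs were named after their values were seen, and of them miR-455-5p alone passed in all 12 fits without 1 library.

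For 43 of the 59 calls the other arm was tested too, and its estimate had the same sign in all 43. The rate of equal signs over all tested pairs of arms was not computed. The other arm was itself called in 20 of the 43, against 9.87% of all miRNAs tested. A hairpin with both arms called entered under each of them, so these partners are not all from separate hairpins. Some of these partners were near 0: miR-666-5p had 0.03 against 1.63 for miR-666-3p, miR-145a-5p had -0.13 against -0.87, and miR-296-5p had 0.19 against 2.14 for miR-296-3p. Arms share a precursor, so this is 1 measurement of the locus rather than 2. The 51 calls with a sequence in RefSeq held 48 different seeds, and 3 seeds appeared in 2 calls each. These were the seeds of miR-199a/b-3p, which are the same reads, of miR-34b/c-3p and of miR-200b/429. The calls miR-34c-5p, miR-199b-5p, miR-378a-3p and miR-30d-3p, relatives of other calls, had no sequence to compare, so shared seeds may be undercounted. In 3 cases given above, miR-34b with miR-34a, miR-146b with miR-146a and miR-200 with miR-141 and miR-200c, a relative with the same seed from another locus did not pass. Further seed mates did not pass either. Among them were miR-148a-3p (-0.05) and miR-148b-3p (0.22) beside miR-152-3p (1.58), and miR-28a-5p (-0.36) beside miR-708-5p (1.07). Some relatives from separate hairpins passed with the same sign. Among these were miR-199a-5p (2.54) with miR-199b-5p (1.47), and miR-378a-3p (-1.21) with miR-378c (-0.95), which may share reads. miR-30e-3p (-1.10) and miR-30d-3p (-0.96) also passed, while miR-30a-3p (-0.59), with the seed of miR-30e-3p, did not.

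All 3 MI P7 libraries lay above the other 9 for 37 of the 598 miRNAs (6.19%), 18 of them among the 47 higher calls. They lay below the other 9 for 48 (8.03%), 9 of them among the 12 lower calls. The MI P1 libraries lay below all others for 13 (2.17%), 5 of them among the higher calls, and above all others for 7 (1.17%).

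Of the 5 most abundant miRNAs, 3 have been given above (miR-133a-3p, miR-143-3p, miR-378a-3p). miR-22-3p, the first of the 5 and a regulator of hypertrophy, stood at 110100, 131270 and 49070 CPM in MI P7 and at 121410 to 176710 CPM elsewhere. Replicate 3 was the low one, and the difference of -0.94 ± 0.38 did not pass (adjusted p = 0.139). miR-486a-5p, found in red cells and muscle, stood at 23708, 42558 and 67722 CPM in MI P7 and had -0.99 ± 0.43 (adjusted p = 0.155). For both, the MI P7 libraries spread more widely than those of the other groups.

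The same contrast in the 16 libraries of the 3-day follow-up, made with another kit and fitted apart, gave 0 calls of 446 with edgeR (0.0%), where 71 had an unadjusted p under 0.05 and the lowest adjusted value was 0.132. The 8 libraries of the P7 groups were shallow there, at 1.29 to 3.42 M reads, as were the 2 sham P1 libraries of title code 1103, at 1.56 and 2.65 M, against 5.61 to 13.0 M in the other 6. Without code 1103 the contrast gave 1 call of 483 (0.207%), miR-21a-3p at 3.74 ± 0.56 (adjusted p = 0.000748), which stood at 3.02 ± 0.74 with them (adjusted p = 0.132). Of the 47 higher calls at 21 days, 38 were tested at 3 days and 23 had an estimate above 0, near the 63.0% of all miRNAs there. Without code 1103 it was 35 of 41, against 65.4% of all, with sham P1 then resting on the libraries of code 1078 alone. Of the 12 lower calls, 8 were tested at 3 days and 2 had an estimate above 0, or 4 of 9 without code 1103. The 3-day values of the P1-driven miRNAs pointed the other way without passing: -1.17 ± 0.65 for miR-582-3p (adjusted p = 0.347) and -0.95 ± 0.64 for miR-184-3p (adjusted p = 0.433), or -1.002 ± 0.667 and -0.47 ± 0.61 without code 1103. Whether the difference changed between 3 and 21 days was not tested, since the kits differ.

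**Figure D5:**
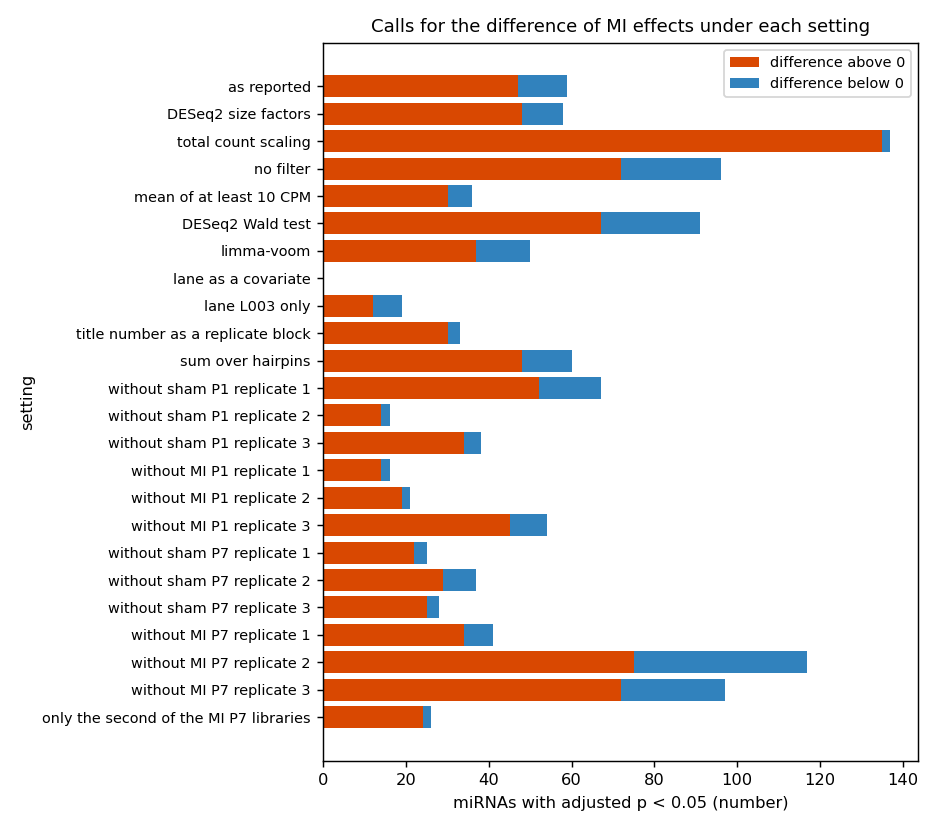
Number of miRNAs with an adjusted p under 0.05 for the P7 minus P1 difference (horizontal axis) under each setting (rows), split into differences above 0 (orange) and below 0 (blue). The count was 59 as reported, 0 with the lane as a covariate, 16 to 117 when 1 library was left out and 137 with total count scaling, and calls above 0 outnumbered those below 0 in every row that has any.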

How the data were processed

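Small RNA was sequenced from left ventricle of sham and infarcted mice. The authors deposited read counts per mature miRNA and hairpin for each library; Bowtie2 2.2.2, edgeR and the build GRCm38 are named, without roles, per the submitters' processing notes, while which counter and annotation were used, and how reads that fit several miRNAs were treated, is not stated there. A mature miRNA listed under several hairpins was given its highest count, since for 27 of the 31 such names over 1000 reads the hairpins' counts lay within 10% of each other. This left 1367 names, and counts of near-identical miRNAs (miR-199a-3p with miR-199b-3p, miR-486a-5p with miR-486b-5p, for example) cannot be separated.

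Counts were filtered with edgeR's filterByExpr (minimum count 10), which kept 598 miRNAs, scaled by TMM and fitted over the 4 groups in 1 model (8 residual degrees of freedom, biological coefficient of variation 0.25) with edgeR 4.0.16 in R 4.3.3. Contrasts were tested with the robust quasi-likelihood F test, with Benjamini-Hochberg adjustment over all 598 and a threshold of 0.05. The standard error is the size of the log2 value over the square root of F. CPM are TMM-scaled, except that summed list levels are per 1 M collapsed counts. The procedure was tested on simulated data. No 2 libraries of a group agreed within sampling noise (chi-square over degrees of freedom of at least 107.9). Pairs of MI P7 libraries stood at 2342 to 5000, and pairs within the other groups at 107.9 to 626.8.

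Named miRNAs were the 12 highest and 12 lowest differences among calls with a mean of at least 10 CPM (7 were available on the lower side), filled to 20 by smallest p, with the 5 most abundant, up to 4 members of each list, and the arms and neighbours within 10 kb of these; miRNAs outside this rule are said to be so or stand as comparison. The members and lists were chosen with earlier results of these data known, so no list was tested as a set. Alternatives were DESeq2 1.42.0 size factors and its Wald test, total count scaling, no filter, a mean of at least 10 CPM, limma-voom (3.58.1), the lane as covariate or restriction, the title number as a replicate block, sums over hairpins and leaving out each library. RefSeq held the sequence of 51 of the 59 calls.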

Additional observations from a re-analysis of the deposited data

Results flagged for a closer look

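The results in this section are those for which the infarction effect differed between P1 and P7 by the test of the difference itself (edgeR quasi-likelihood test, adjusted p under 0.05); groups of 3 libraries are too small for a check on single outlying libraries. There were 59 such miRNAs. Values are P7 minus P1 differences on the log2 scale.

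In the fibroblast-associated list they were 2.54 for miR-199a-5p, 2.48 for miR-214-5p, 2.32 for miR-214-3p, 2.09 for miR-21a-3p, 1.97 for miR-199a-3p and for miR-199b-3p, 1.78 for miR-21a-5p and 1.47 for miR-199b-5p. In the miR-34 family they were 3.65 for miR-34b-3p, 3.52 for miR-34b-5p, 3.19 for miR-34c-3p and 2.64 for miR-34c-5p. The miRNAs low after MI at P1 gave 2.85 for miR-582-5p, 2.80 for miR-184-3p and 2.64 for miR-582-3p.

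Further differences above 0 were 2.87 for miR-147-3p, 2.24 for miR-146b-5p, 2.42 for miR-200a-3p, 2.37 for miR-200b-3p, 2.36 for miR-429-3p, 1.57 for miR-221-3p, and, in the Dlk1-Dio3 cluster, 1.80 for miR-382-5p, 1.75 for miR-382-3p, 1.28 for miR-341-3p and 1.15 for miR-369-3p. The other 22 calls above 0 lay between 0.97 for miR-337-5p and 2.96 for miR-465c-5p. The 12 differences below 0 were -2.44 for miR-3098-3p, which has under 1 CPM on average, -2.08 for miR-378d, -1.65 for miR-9-5p, -1.58 for miR-1960, -1.41 for miR-483-3p, -1.40 for miR-5709-5p, -1.21 for miR-378a-3p, -1.10 for miR-30e-3p, -1.09 for miR-133a-3p, -0.96 for miR-30d-3p, -0.95 for miR-378c and -0.87 for miR-145a-3p.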

How the results depend on the processing

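For the P7 minus P1 difference, the 59 calls became 137 with total count scaling, 96 with no filter (1367 miRNAs tested), 36 at a mean of at least 10 CPM (284 tested), 91 with the DESeq2 Wald test, 0 with the lane as a covariate, 19 in lane L003 only and 26 with replicate 2 as the only MI P7 library (chosen after seeing the data). DESeq2 size factors (58), limma-voom (50) and sums over hairpins (60) stayed within 1.5 times the count. Leaving out 1 library gave 16 to 117 calls. All 59 kept their sign in the 12 leave-one-out fits. With MI P7 replicate 2 alone, where that group has no spread of its own and the lone library is assumed to vary like the other groups, the p-values and counts say nothing of stability. No called miRNA among those named reversed its sign under any setting. The cause of these shifts was not tested. A filter or a left-out library also leaves fewer miRNAs or samples.

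The count for MI against sham at P7 (132) was 78 at 10 CPM or more, 3 with replicate 2 as the only MI P7 library, and 60 to 190 with 1 library left out. That for MI against sham at P1 (3) was 12 with no filter, 0 in lane L003 only, 5 with MI P7 replicate 2 alone, and 2 to 4 with 1 library left out. That for the sham groups (0) was 2 with total count scaling, 29 with no filter, 14 with the DESeq2 Wald test, 33 with MI P7 replicate 2 alone, and 0 to 6 with 1 library left out. That for the MI groups (81) was 122 with total count scaling, 44 with the lane as a covariate, 37 in lane L003 only, 10 with MI P7 replicate 2 alone, and 30 to 152 with 1 library left out.

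With the title number as a replicate block, 33 miRNAs passed for the P7 minus P1 difference (29 of them among the 59), 85 for MI against sham at P7 and 39 for the MI groups. Same-numbered libraries correlated between -0.309 and 0.328 in their deviations from group means. These values gave no sign of pairing by number, but with 3 libraries a group they cannot decide whether the numbers pair the libraries. With 3 libraries a group, rare miRNAs are limited by counts: the MI P1 libraries held 2 to 7 counts of miR-147-3p.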

Other observations

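The highest estimates of the P7 minus P1 difference belonged to 2 miRNAs that did not pass, miR-3473e at 6.99 (adjusted p = 0.0821) and miR-3473b at 6.01 (adjusted p = 0.0604). miR-3473b had 346 counts in sham P1 replicate 2 and 275 in MI P7 replicate 1, and between 4 and 60 in the other 10 libraries. miR-3473e followed the same pair of libraries, with 75 and 51 counts against 0 to 21 elsewhere. These 2 miRNAs were picked after their values were seen.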
